A study of Mus musculus with 22 samples.

Results

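Splenic immature B cells from mice whose gamma delta T cells had been depleted with diphtheria toxin were compared with those of untreated mice in the first spleen experiment of the study, by RNA sequencing of sorted B220+CD93+ cells. Its 6 libraries are 6 of the 22 in the series, 3 depleted and 3 untreated, and they were taken by their labels as day 8 and control samples of the Tcrd-GDL strain. Mice of both groups were of the Tcrd-GDL strain, in which the diphtheria toxin receptor is expressed from the T cell receptor delta locus. No library of this experiment came from mice given toxin without loss of these cells, so toxin and depletion cannot be told apart within it. Depleted mice received 2 intraperitoneal injections of 15 ng diphtheria toxin per g body weight, 48 h apart, and were analysed 8 days after the first injection. Age, sex and any pooling of animals are not stated in the labels. Nor do they say whether libraries of a group came from separate mice, so a p-value here reflects the spread among libraries, which may be technical. Of 21880 genes in the deposited table, 11701 had a mean normalized read count of at least 10 over the 6 libraries and were tested.

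Gamma delta T cells are a minor T cell lineage that responds without classical peptide presentation and secretes cytokines such as interferon gamma, IL-17 and IL-4. B cells that leave the bone marrow pass through the spleen as CD93-positive transitional cells, where they are selected through the B cell receptor and survive on BAFF before they become follicular or marginal zone B cells. Most transitional cells are not dividing, and RNA of cell cycle genes in such a sort comes from a small cycling fraction or from recent division. The comparison addresses whether the loss of gamma delta T cells changes the transcriptome of B cells at this stage.

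The labelled cell type was borne out by its markers. Cd93, the receptor used in the sort, lay at 601, 735 and 732 in depleted replicates 1, 2 and 3, and 828, 649 and 717 in the untreated ones. Ptprc, which encodes the B220 antigen, ranged from 7786 to 9661. Ighm, the mu heavy chain gene, was between 27627 and 37706 in the 6 libraries. These 3 genes overlapped between the groups, with adjusted p-values from 0.86 to 0.94.

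Depleted replicate 1 stood apart from the other 5 libraries. Recovered reads per library ran from 9794413 in depleted replicate 1 to 20343954 in untreated replicate 1. In a principal component analysis of all tested genes, the first component (38.2% of variance) placed depleted replicate 1 at 36.0, depleted replicates 2 and 3 at -32.1 and -18.0, and the 3 untreated libraries between 2.04 and 8.28. Across genes, depleted replicate 1 correlated with depleted replicates 2 and 3 at Pearson's r of 0.957 and 0.964, below its correlations with the untreated libraries (0.968 to 0.971), while untreated pairs reached 0.985 to 0.987. Depleted replicate 2 was as far from the untreated libraries, at 0.967 to 0.971, but reached 0.983 with depleted replicate 3. On the second component depleted replicates 1 and 2 lay at 27.2 and 22.9, depleted replicate 3 at 0.13 and the untreated libraries between -18.4 and -15.1. Genes are not independent replicates, so these coefficients carry no p. A single gene, Gm23935, took 28.7% of the reads of depleted replicate 1 and 16.1% to 20.4% elsewhere. It is annotated as a microRNA and was listed here among abundant structural noncoding RNAs.

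Sex-linked transcripts also separated depleted replicate 1. Xist, the noncoding RNA of the inactive X chromosome, lay at 3.06, 9866 and 9333 in depleted replicates 1, 2 and 3, and 10639, 9647 and 9304 in the untreated ones. Y-linked Ddx3y was at 569, 40 and 1.68 in the depleted libraries and Eif2s3y at 288, 21.1 and 3.37, and both were at 0 in all 3 untreated libraries. Depleted replicate 1 thus had a male pattern, depleted replicate 2 held Xist together with a low level of Y-linked RNA, and the untreated libraries had a female pattern. Sex cannot be told apart from the other properties of depleted replicate 1, so values are given by library, and for lists and leading genes also from the fit that leaves this library out.

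**Figure D1:**
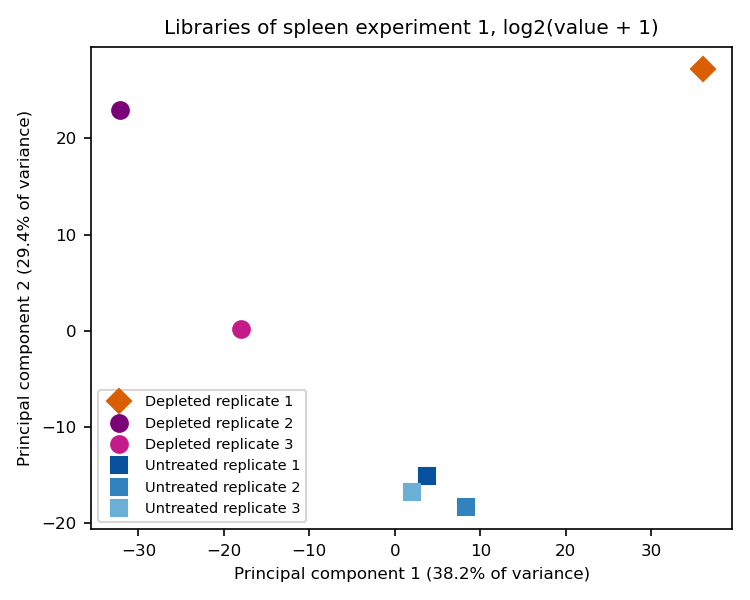
Principal components of log2(value + 1) over the 11701 tested genes, component 1 on the x axis (38.2% of variance) and component 2 on the y axis (29.4%), 1 point per library. Depleted replicate 1 lies at 36.0 on the x axis, away from depleted replicates 2 and 3 on the other side, and the 3 untreated libraries lie close to each other between 2.04 and 8.28.

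Over all 6 libraries no gene passed an adjusted p of 0.05. The test was limma on log2(value + 1) with Benjamini-Hochberg adjustment over the 11701 genes, and a gene past that threshold is here called higher or lower, and the share called was 0%. At an unadjusted p under 0.05, 487 genes (4.16%) were higher and 546 (4.67%) lower in depleted cells, 1033 in all. Values of the groups did not overlap for 853 genes on the higher side (7.29%) and 922 on the lower side (7.88%). Among all tested genes the median log2 change was -0.01 and 52.0% were negative. On reads recovered from the values, edgeR's quasi-likelihood test called 0 genes too (1080 at an unadjusted p under 0.05), whereas DESeq2 called 31.

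The same test without depleted replicate 1 called 479 genes higher (4.09%) and 618 lower (5.28%), 1097 in all. Of these 1097 genes, 174 changed at least 2-fold, 40 upward and 134 downward. edgeR on the same 5 libraries also called 1030 of the 1097 and DESeq2 805. Depleted replicate 1, which had no part in those calls, lay on the called side of the untreated mean for 542 of the 1097 genes (49.4%), with 217 of 479 among the higher genes (45.3%) and 325 of 618 among the lower ones (52.6%). No other library had such an influence: leaving out any 1 of the remaining 5 gave 0 calls.

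The genes with the smallest p whose values did not overlap, at a mean of at least 50, are described next, 12 on each side. Choosing by p fixed their direction, so their counts describe the choice. Each of the 24 was also called without depleted replicate 1, in a fit that shares 5 of the 6 libraries. Nlrc3, a NOD-like receptor family member that restrains immune signalling (ENSMUSG00000049871, chr16:3945007-3976632 of GRCm38), had normalized read counts of 242, 266 and 196 in depleted replicates 1, 2 and 3, and 109, 96.9 and 94.9 in the untreated ones. The lowest depleted library stood at 196 and the highest untreated one at 109, a log2 difference of 1.21 ± 0.16 with an adjusted p of 0.181. Trim7, a ubiquitin ligase gene (chr11:48826140-48852209), lay at 867, 981 and 800.3 in depleted replicates 1, 2 and 3, and 556, 479.6 and 518 in the untreated ones, a log2 difference of 0.77 ± 0.11 (adjusted p 0.181). Ddb2, a DNA damage recognition gene induced by p53, was at 116, 137 and 117 in depleted replicates 1, 2 and 3, and 65.6, 78.7 and 67.8 in the untreated ones, with no overlap and a log2 difference of 0.80 ± 0.17 (adjusted p 0.396). The other p53 target genes did not share this: of 16 tested, 8 were positive and the median was 0.00, with Ddb2 alone at an unadjusted p under 0.05.

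Chuk, which encodes the kinase IKK alpha of the noncanonical NF-kB pathway, was at 508, 478 and 526 in depleted replicates 1, 2 and 3, and 362, 382 and 371 in the untreated ones (log2 0.44 ± 0.10, adjusted p 0.415). Its untreated libraries lay close together and below all depleted ones. Il9r, the IL-9 receptor alpha chain gene, was at 275, 155 and 137 in depleted replicates 1, 2 and 3, and 93, 79.9 and 87.3 in the untreated ones (log2 1.05 ± 0.24), and here depleted replicate 1 was the highest of all. Rbm3, a cold-inducible RNA-binding protein gene, is taken up with the chaperones below. The remaining 6 genes on the higher side were Ccdc125, Dennd2d, the lysophospholipid acyltransferase gene Lpcat1, the ubiquitin ligase gene Rnf123, the Arf GTPase activator gene Acap1 and the zinc finger gene Zfp956, with log2 differences between 0.42 and 0.86.

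Sdc1 led the lower side. It encodes syndecan-1 (CD138), a surface proteoglycan best known from plasma cells (ENSMUSG00000020592, chr12:8771323-8793715). Its normalized read counts were 214, 162 and 215 in depleted replicates 1, 2 and 3, and 378, 449 and 386 in the untreated ones, so that the highest depleted library stood at 215 and the lowest untreated one at 378. This was a log2 difference of -1.04 ± 0.14 (adjusted p 0.181) and of -1.11 ± 0.14 without depleted replicate 1 (adjusted p 5.24e-05). The plasmablast list as a whole did not stand with it: 8 of 12 tested members were negative, the median was -0.15 and Sdc1 alone was at an unadjusted p under 0.05. Prdm1, the plasma cell regulator Blimp-1, was at 58.1, 55.8 and 74.1 in depleted replicates 1, 2 and 3, and 97.8, 66.6 and 98.3 in the untreated ones (log2 -0.47 ± 0.22).

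Ap1s2, a subunit gene of the AP-1 clathrin adaptor (chrX:163909017-163933666), was at 209.5, 156 and 153 in depleted replicates 1, 2 and 3, and 317, 326 and 315 in the untreated ones. The untreated libraries were nearly equal, and the groups did not overlap (log2 -0.90 ± 0.15, adjusted p 0.329). Il2ra, the IL-2 receptor alpha chain CD25, was at 35.2, 42.1 and 57.3 in depleted replicates 1, 2 and 3, and 119, 77.5 and 103 in the untreated ones (log2 -1.14 ± 0.24, adjusted p 0.396). Dusp10, a phosphatase that inactivates stress-activated kinases, was at 291, 277 and 201 in depleted replicates 1, 2 and 3, and 459, 435 and 463 in the untreated ones (log2 -0.83 ± 0.15, adjusted p 0.391). Nfya encodes the A subunit of NF-Y, the factor that binds CCAAT boxes. It was at 598, 475 and 532 in depleted replicates 1, 2 and 3, and 839, 782 and 756 in the untreated ones (log2 -0.57 ± 0.11, adjusted p 0.391), again with all depleted libraries below all untreated ones. The chaperone genes Hspa4l and Hsp90b1 belong to this side and are described below, and the other 5 were Pdzd2, Ehd2, Hivep3, Myadm and Pyhin1, with log2 differences from -0.73 to -0.40.

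**Figure D2:**
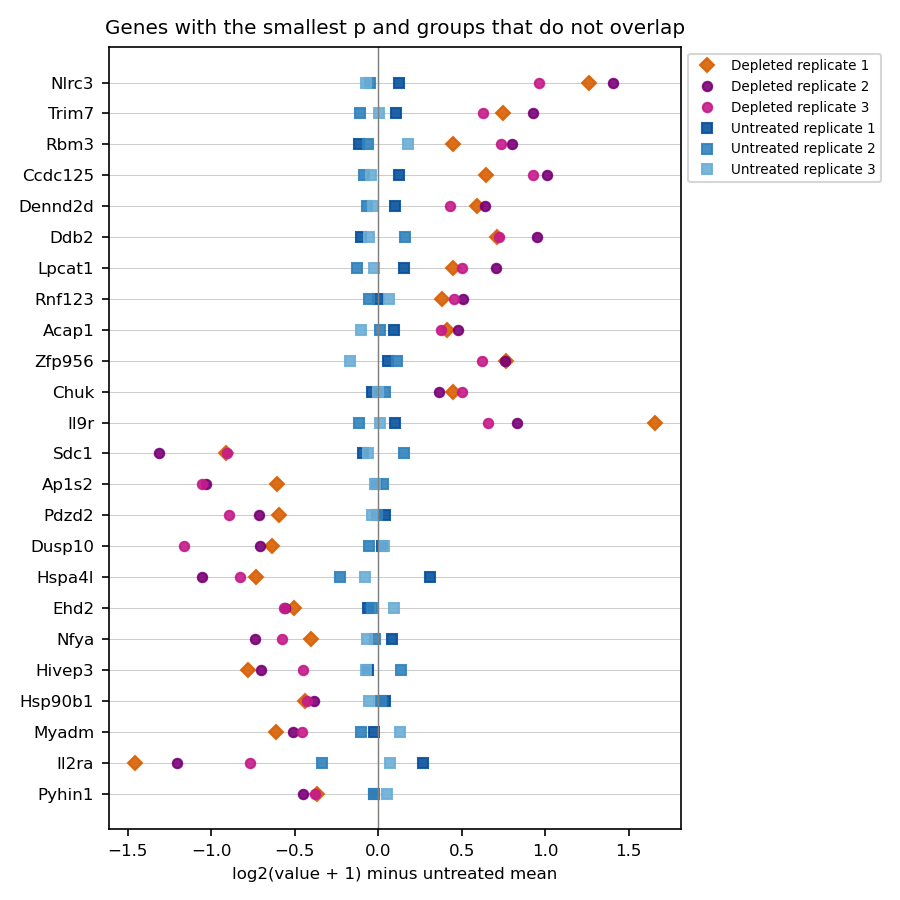
The 24 genes with the smallest p among those with a mean of at least 50 and groups that do not overlap; the x axis is log2(value + 1) minus the untreated mean and each point is 1 library. All depleted libraries lie on 1 side of all untreated ones by the choice of genes, from -1.14 for Il2ra to 1.21 for Nlrc3 in log2 difference of the group means.

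Heat shock chaperone genes were lower in depleted cells by unadjusted p more often than any other B cell list relative to its size. These genes encode the HSP70, HSP90, HSP110 and HSP60 proteins and their cochaperones, and the heat shock factor HSF1 induces them through heat shock elements in their promoters. Of 14 tested members 12 had an unadjusted p under 0.05 on the lower side, where all genes gave 4.67%, and 13 were negative, with a median log2 difference of -0.54. For 7 of the 14 the groups did not overlap, beside 7.88% of all genes. Against the untreated mean, the list median was -0.35, -0.88 and -0.65 in depleted replicates 1, 2 and 3. It was 0.18, -0.01 and -0.22 in untreated replicates 1, 2 and 3. By the mean over the list, untreated replicate 3 (-0.48) lay below depleted replicate 1 (-0.43). No member passed the adjusted threshold over all 6 libraries. Without depleted replicate 1, 13 were called lower, beside 5.28% of all genes, at a median of -0.72.

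Hsph1, the inducible HSP110 gene (ENSMUSG00000029657, chr5:149614287-149636376), had normalized read counts of 548, 255 and 358 in depleted replicates 1, 2 and 3, and 1848, 1040.4 and 619.6 in the untreated ones. All depleted libraries lay below all untreated ones, although the untreated libraries themselves were spread widely. The log2 difference was -1.52 ± 0.37 (adjusted p 0.415) and -1.81 ± 0.26 without depleted replicate 1 (adjusted p 0.000242). Hspa8, the constitutive HSC70 gene (chr9:40800984-40810087), lay at 11536, 7989.6 and 10339.9 in depleted replicates 1, 2 and 3, and 15066, 17361 and 13104 in the untreated ones (log2 -0.62 ± 0.16, adjusted p 0.415). Hsp90aa1, the inducible HSP90 alpha gene, was at 3057, 2462 and 2916 in depleted replicates 1, 2 and 3, and 5025, 4339.8 and 3206 in the untreated ones (log2 -0.56 ± 0.16), and neither of these genes overlapped between the groups. Hspd1, the mitochondrial HSP60 gene, was at 839.6, 671 and 611 in depleted replicates 1, 2 and 3, and 1051, 1003 and 989 in the untreated ones (log2 -0.53 ± 0.12, adjusted p 0.415). The cochaperone gene Stip1 was at 511, 434 and 467 in depleted replicates 1, 2 and 3, and 751, 652 and 581 in the untreated ones, also without overlap (log2 -0.49 ± 0.12). Hsf1, the gene of the heat shock factor itself, was the 1 positive member, at 217, 200.0 and 235 in depleted replicates 1, 2 and 3, and 208, 223 and 214 in the untreated ones (log2 0.02 ± 0.12).

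Hspa1a and Hspa1b, the stress-inducible HSP70 genes, had the lowest log2 differences of the list and the widest spread. Hspa1b was at 26, 3.16 and 15.2 in depleted replicates 1, 2 and 3, and 657, 102 and 22 in the untreated ones, and Hspa1a at 24.5, 1.05 and 3.37 in depleted replicates 1, 2 and 3, and 272, 19.4 and 12.7 in the untreated ones. Untreated replicate 1 was far above the rest in both genes, and the depleted range of both overlapped the untreated one. The log2 differences were -3.25 ± 1.05 for Hspa1b and -2.79 ± 1.15 for Hspa1a. The copies lie side by side on chromosome 17 and are nearly identical, so the split of reads between them is uncertain. Their promoters are shown because they carry the heat shock motif of the list. They are the 250 bases before the start from RefSeq (GRCm38.p6), 5′ to 3′ in the direction of transcription, and the capitals mark GAANNTTC, 2 inverted units of a heat shock element. The region is chr17:34972157-34972406 on the minus strand for Hspa1a and chr17:34959239-34959488 on the minus strand for Hspa1b.
Hspa1a: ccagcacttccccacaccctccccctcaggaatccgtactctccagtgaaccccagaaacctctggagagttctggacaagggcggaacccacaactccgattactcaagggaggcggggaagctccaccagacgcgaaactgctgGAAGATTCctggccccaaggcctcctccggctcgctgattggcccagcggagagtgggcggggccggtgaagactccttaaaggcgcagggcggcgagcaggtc
Hspa1b: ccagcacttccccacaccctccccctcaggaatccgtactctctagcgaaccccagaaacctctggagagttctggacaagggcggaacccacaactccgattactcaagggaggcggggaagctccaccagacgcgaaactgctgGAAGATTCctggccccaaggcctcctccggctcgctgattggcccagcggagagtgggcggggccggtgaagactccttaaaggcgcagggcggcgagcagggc
The 2 sequences differ at 3 of 250 positions, and in both the match begins 104 bases before the start. GAANNTTC was searched on both strands in the same window of 27025 promoters, 1 per gene symbol, after the values had been seen. It occurs in 6.78% of them and in 4 of the 10 promoters found for the 14 chaperone genes. The promoters of Hsph1 and Hspd1 held no match to GAANNTTC. TTCNNGAA, the other order of the 2 inverted units, was not searched, so these counts leave it out. The Hsph1 window holds that order as ttctcgaa. A match is a description of letters and not evidence of binding.

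Leaving out untreated replicate 1, the library highest in these genes, left 14 of 14 members negative at a median of -0.50, with 7 on the lower side at an unadjusted p under 0.05 in place of 12. Leaving out depleted replicate 2, the lowest library, left 7 as well (median -0.46). Among the 24 genes above, which were chosen for groups that do not overlap, are 2 more chaperone genes. Hspa4l, another HSP110 family gene, was at 187, 148 and 174 in depleted replicates 1, 2 and 3, and 385, 264 and 293 in the untreated ones (log2 -0.87 ± 0.16, adjusted p 0.391). Hsp90b1, the HSP90 of the endoplasmic reticulum also called GRP94 (chr10:86690209-86705509), was at 2176, 2257 and 2190.3 in depleted replicates 1, 2 and 3, and 3028, 2987 and 2839 in the untreated ones, tight within both groups and separate between them (log2 -0.42 ± 0.08, adjusted p 0.396).

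Rbm3 and Cirbp, a pair of cold-inducible RNA-binding protein genes that belong to no list here, were named by their p and their difference. Rbm3 (ENSMUSG00000031167, chrX:8138975-8145880) was at 2628, 3368 and 3209.6 in depleted replicates 1, 2 and 3, and 1779.6, 1852 and 2183 in the untreated ones, a log2 difference of 0.66 ± 0.12 (adjusted p 0.391) with no overlap, and of 0.77 ± 0.09 without depleted replicate 1 (adjusted p 3.27e-05). Cirbp (chr10:80165985-80172786), was at 217, 936 and 537 in depleted replicates 1, 2 and 3, and 209.9, 147 and 216 in the untreated ones. Depleted replicate 1 was just above the highest untreated library and depleted replicates 2 and 3 well above it (log2 1.34 ± 0.42, adjusted p 0.502), and without replicate 1 the difference was 1.91 ± 0.19 (adjusted p 6.3e-06). Cirbp came from the genes with the largest difference among those called without depleted replicate 1. Srsf5, a splicing factor gene chosen by the same rule, was at 2302, 4403 and 2626 in depleted replicates 1, 2 and 3, and 1609, 1737 and 1631 in the untreated ones (log2 0.85 ± 0.20).

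**Figure D3:**
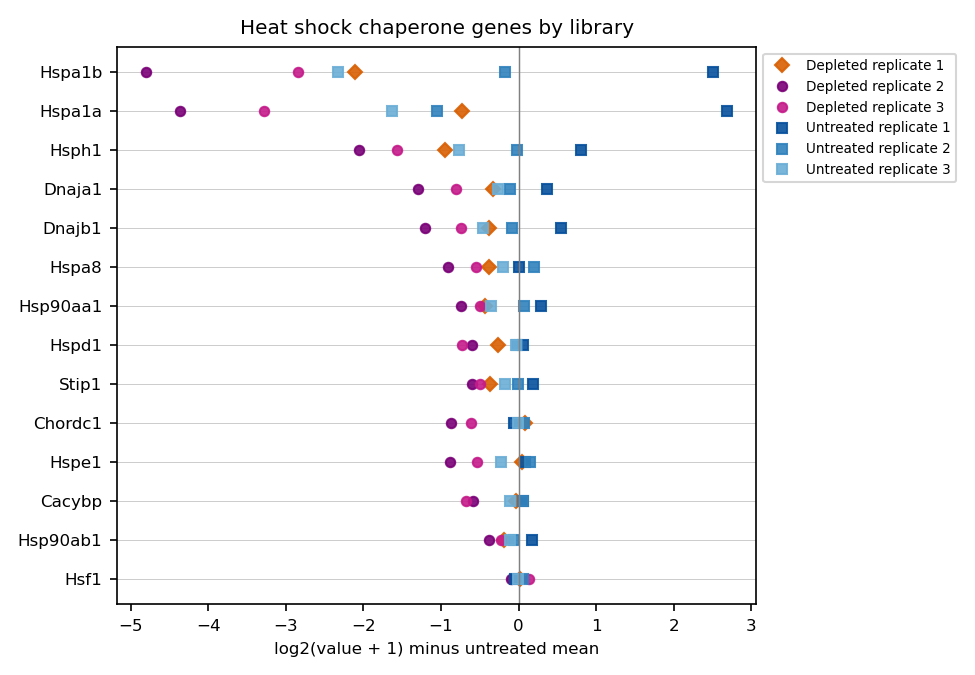
The 14 tested heat shock chaperone genes by library; the x axis is log2(value + 1) minus the untreated mean and each point is 1 library. For every gene but Hsf1, depleted replicates 2 and 3 lie below all untreated libraries and below depleted replicate 1, and untreated replicate 1 is the highest library for Hspa1b, Hspa1a and Hsph1.

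Genes of the unfolded protein response, which the endoplasmic reticulum uses to raise its folding capacity, had a smaller difference. Of 22 tested, 5 were lower and 1 higher at an unadjusted p under 0.05, beside 4.67% and 4.16% of all genes. The median was -0.11. Besides Hsp90b1, Manf was at 595, 501 and 497 in depleted replicates 1, 2 and 3, and 599, 722 and 652 in the untreated ones (log2 -0.31 ± 0.12) and the chaperone gene Hyou1 at 912, 805 and 797 in depleted replicates 1, 2 and 3, and 1059.8, 1049 and 926 in the untreated ones (log2 -0.27 ± 0.10). The groups did not overlap in either. With depleted replicate 1 left out, 7 were called lower and 1 higher, beside 5.28% and 4.09% of all genes.

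Mitosis genes had the lowest median of the lists. Of 29 tested, 28 were negative and the median log2 difference was -0.67. On the lower side 12 had an unadjusted p under 0.05, beside 4.67% of all genes. Cenpf, a kinetochore protein gene (ENSMUSG00000026605, chr1:189640606-189688086), was at 27.5, 10.5 and 16 in depleted replicates 1, 2 and 3, and 45.3, 40 and 48.3 in the untreated ones. It had the smallest p of the list, with no overlap between the groups (log2 -1.35 ± 0.35, adjusted p 0.415). Prc1, a cytokinesis regulator gene (chr7:80294450-80316259), was at 68.8, 30.5 and 43 in depleted replicates 1, 2 and 3, and 95.4, 70.2 and 89 in the untreated ones (log2 -0.89 ± 0.29, adjusted p 0.508). Depleted replicate 1 came close to the lowest untreated library there. Aurka, a spindle kinase gene, was at 41.3, 25.3 and 30.3 in depleted replicates 1, 2 and 3, and 45.9, 64.2 and 52.6 in the untreated ones (log2 -0.74 ± 0.26), and Ccnb2, the cyclin B2 gene, at 68.8, 28.4 and 27 in depleted replicates 1, 2 and 3, and 60.2, 65.4 and 71.2 in the untreated ones (log2 -0.78 ± 0.34).

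The difference in mitosis genes rested on depleted replicates 2 and 3. Against the untreated mean, the median over the 29 genes was -0.07 in depleted replicate 1, -1.23 in depleted replicate 2 and -0.76 in depleted replicate 3, and between -0.08 and -0.01 in the untreated libraries. Without depleted replicate 1, 17 of the 29 were called lower at a median of -1.03, beside 5.28% of all genes. Without depleted replicate 2 the median was -0.36 and 2 were lower at an unadjusted p under 0.05. Mki67, the proliferation marker Ki-67, shows the pattern at 193, 46.3 and 105 in depleted replicates 1, 2 and 3, and 131, 150.2 and 125 in the untreated ones. Depleted replicate 1 was the highest of the 6 libraries and depleted replicates 2 and 3 the lowest (log2 -0.45 ± 0.40, and -0.94 ± 0.25 without replicate 1, adjusted p 0.0225). Top2a, a topoisomerase gene of dividing cells, was at 456, 165 and 218 in depleted replicates 1, 2 and 3, and 427, 348 and 395 in the untreated ones, and Birc5, the survivin gene, at 64.2, 13.7 and 22.7 in depleted replicates 1, 2 and 3, and 55.5, 69 and 61.9 in the untreated ones. In these bulk libraries fewer cycling cells and less RNA per cell cannot be told apart.

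DNA replication genes followed in a weaker form. Of 28 tested, 22 were negative and 5 lower at an unadjusted p under 0.05 (median -0.27), beside 4.67% of all genes. Without depleted replicate 1, 16 were called lower (median -0.48), beside 5.28% of all genes. Mcm6, a subunit of the replicative helicase, was at 664, 574 and 599.8 in depleted replicates 1, 2 and 3, and 833, 753 and 815 in the untreated ones, with no overlap (log2 -0.39 ± 0.10, adjusted p 0.415). Rrm2, the inducible subunit of ribonucleotide reductase, lay at 237, 46.3 and 59 in depleted replicates 1, 2 and 3, and 124, 155 and 174 in the untreated ones, highest in depleted replicate 1 (log2 -0.78 ± 0.49, and -1.50 ± 0.20 without that library, adjusted p 0.000108).

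Replication-dependent histone genes, whose messages lack a poly(A) tail and accumulate in S phase, differed widely among the depleted libraries. All 59 tested members had a negative log2 difference (median -0.53) with limma, as after quantile normalization, while 4 of the 59 were positive with edgeR (median -0.31) and 5 with DESeq2 (median -0.26), Hist1h3b among the last. By limma 3 of the 59 were lower at an unadjusted p under 0.05, beside 4.67% of all genes. Against the untreated mean their median was 0.53 in depleted replicate 1, -0.83 in depleted replicate 2 and -1.07 in depleted replicate 3. Hist1h2ab was at 627, 152 and 179 in depleted replicates 1, 2 and 3, and 496, 607 and 523 in the untreated ones, and Hist1h3b at 846, 90.5 and 116 in depleted replicates 1, 2 and 3, and 276, 430.0 and 314 in the untreated ones. In both, depleted replicate 1 was the highest library and depleted replicates 2 and 3 were the lowest. Among the 59 genes 46 were called lower without depleted replicate 1, at a median of -1.02, beside 5.28% of all genes. Histone genes of 1 cluster are close copies, so reads may be shared between them. Among genes called without that library, with a mean of at least 50 and no overlap, the 12 with the most negative difference were Hspa1a, Hspa1b, Hsph1 and 9 histone genes.

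CCAAT boxes are common in promoters of mitosis genes as background, and those of Cenpf and Prc1 are shown since they lead the list. They are the 250 bases before the start from RefSeq (GRCm38.p6), 5′ to 3′ in the direction of transcription, with CCAAT in capitals. The region is chr1:189688087-189688336 on the minus strand for Cenpf and chr7:80294201-80294450 on the plus strand for Prc1.
Cenpf: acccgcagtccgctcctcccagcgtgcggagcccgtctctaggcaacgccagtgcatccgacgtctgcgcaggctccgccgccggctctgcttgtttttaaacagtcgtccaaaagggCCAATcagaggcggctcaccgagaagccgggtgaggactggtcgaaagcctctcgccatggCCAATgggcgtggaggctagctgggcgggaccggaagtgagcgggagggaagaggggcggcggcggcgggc
Prc1: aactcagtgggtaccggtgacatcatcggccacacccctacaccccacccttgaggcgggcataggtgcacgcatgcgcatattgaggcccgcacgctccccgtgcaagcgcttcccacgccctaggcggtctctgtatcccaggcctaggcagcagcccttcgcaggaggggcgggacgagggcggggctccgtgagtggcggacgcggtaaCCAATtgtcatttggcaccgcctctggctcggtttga
Searched on both strands of this window, CCAAT was in 34.5% of the 27025 promoters, in 21 of the 25 found for the 29 mitosis genes and in 14 of the 22 found for the 28 replication genes. TTTGAA, the core of the cell cycle homology region, was in 16.3% of all promoters, in 8 of the 25 and in 3 of the 22. The E2F motif, TTCCCGC or TTGGCGC, was in 5.71% of all, in 3 of the 25 and in 9 of the 22. These counts describe the windows and do not separate depleted from untreated cells.

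**Figure D4:**
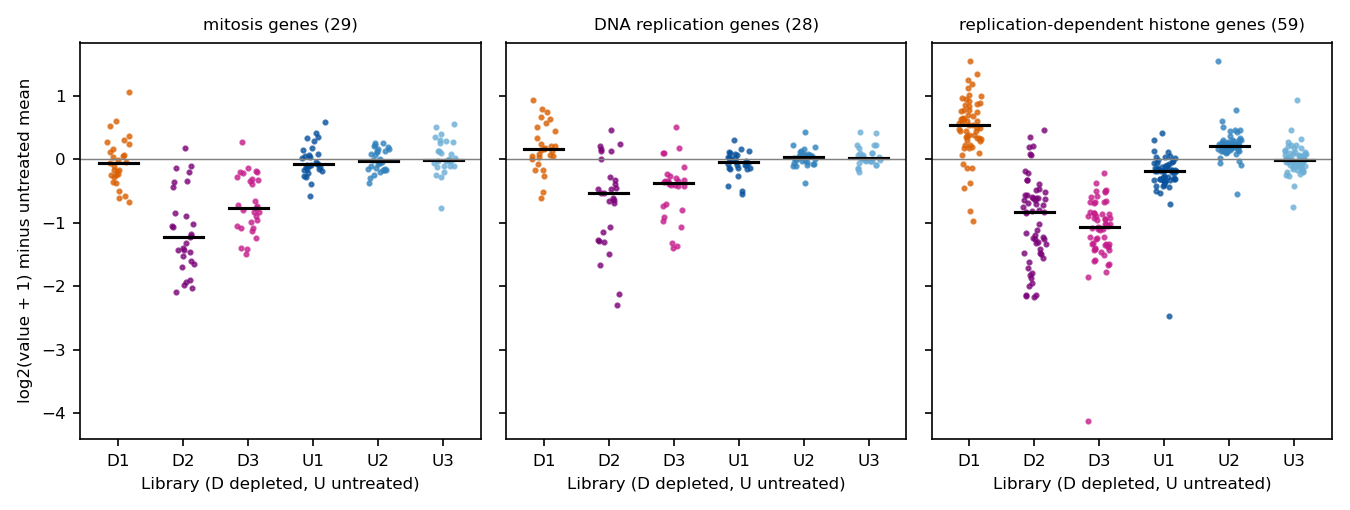
Mitosis, DNA replication and replication-dependent histone genes by library (D depleted, U untreated); the y axis is log2(value + 1) minus the untreated mean, each point is 1 gene and the bar is the median. In depleted replicates 2 and 3 the medians lie below 0 in all 3 panels, at -1.23 and -0.76 for mitosis genes, while depleted replicate 1 lies at -0.07 for mitosis genes and at 0.53 for histone genes.

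Genes of early B cell development were lower by value. All 9 tested members of the transitional list were negative (median -0.33), 8 after quantile normalization. Of the 9, 3 had an unadjusted p under 0.05 (Myb, Sox4 and Rag1), beside 4.67% of all genes on the lower side. Myb, a transcription factor of lymphoid progenitors (ENSMUSG00000019982, chr10:21124935-21160984), was at 789, 382 and 564 in depleted replicates 1, 2 and 3, and 995, 891 and 983 in the untreated ones. The depleted libraries lay below all untreated ones (log2 -0.79 ± 0.21, adjusted p 0.443), and Myb was called lower without depleted replicate 1 (-1.04 ± 0.12, adjusted p 4.49e-05). Sox4, a factor required for B cell development, was at 356, 364 and 401 in depleted replicates 1, 2 and 3, and 480.1, 477 and 456 in the untreated ones, also without overlap (log2 -0.33 ± 0.10). Rag1, a subunit of the V(D)J recombinase, was at 42.8, 13.7 and 8.42 in depleted replicates 1, 2 and 3, and 38.8, 32.7 and 53.4 in the untreated ones. Depleted replicate 1 resembled the untreated libraries in Rag1, and depleted replicates 2 and 3 were lower (log2 -1.20 ± 0.51, and -1.83 ± 0.36 without replicate 1, adjusted p 0.0032). Cd24a, the heat stable antigen that declines as B cells mature, was at 7262, 4584 and 4989 in depleted replicates 1, 2 and 3, and 7478, 6292 and 7335 in the untreated ones (log2 -0.35 ± 0.16), and Cd93 itself had a log2 difference of -0.08 ± 0.13. Without depleted replicate 1, 3 of the 9 genes were called lower, beside 5.28% of all genes, and 4 were positive.

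Genes of mature follicular B cells differed with the libraries used. Of 16 tested, 8 were positive and the median was -0.01 over 6 libraries. In the fit without depleted replicate 1, 10 were positive at a median of 0.12 and 4 were called higher, beside 4.09% of all genes. Over 6 libraries S1pr1, the receptor for egress into blood, was the 1 member at an unadjusted p under 0.05, at 4249, 3836 and 3121 in depleted replicates 1, 2 and 3, and 2643, 2854 and 3411 in the untreated ones, with overlap between the groups. Ighd, the delta heavy chain gene that B cells gain on maturation, was at 5229, 12459 and 9974 in depleted replicates 1, 2 and 3, and 7611, 6198 and 8072 in the untreated ones. Depleted replicate 1 was the lowest library and depleted replicates 2 and 3 the highest (log2 0.26 ± 0.27, and 0.62 ± 0.11 without replicate 1, adjusted p 0.0013). Cr2, the complement receptor CD21, was at 7429.9, 3779 and 3693 in depleted replicates 1, 2 and 3, and 3485, 3132 and 3413 in the untreated ones. All depleted libraries lay above all untreated ones there, and depleted replicate 1 was by far the highest (log2 0.49 ± 0.23, adjusted p 0.576). Fcer2a, which encodes CD23, was at 2144, 3498 and 2959 in depleted replicates 1, 2 and 3, and 2776, 2726 and 3271 in the untreated ones (log2 -0.05 ± 0.16).

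Marginal zone and Notch2 genes separated depleted replicate 1 in the same sense as Cr2. Marginal zone B cells form under Notch2 signals and carry high CD21 and little CD23. Of 17 tested genes 13 were positive with a median of 0.20, and the mean over the list against the untreated mean was 0.59 in depleted replicate 1. Without that library the median was -0.01, with 3 called higher and 3 lower, beside 4.09% and 5.28% of all genes. Dtx1, a Notch target gene, was at 1378, 1128 and 1024 in depleted replicates 1, 2 and 3, and 876, 850.3 and 794 in the untreated ones (log2 0.48 ± 0.12, adjusted p 0.415), and its difference was 0.36 ± 0.09 without depleted replicate 1 (adjusted p 0.018). Rbpj, the DNA-binding partner of Notch, was at 330.4, 357 and 318 in depleted replicates 1, 2 and 3, and 255, 259 and 314 in the untreated ones (log2 0.28 ± 0.12, and 0.29 ± 0.13 without that library, adjusted p 0.154).

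MHC class II genes had higher values by a small amount. These genes load and display peptides to CD4 T cells, under the coactivator encoded by Ciita. Of 16 tested, 14 were positive (median 0.16, and 0.09 with 13 positive after quantile normalization). On the higher side 4 were at an unadjusted p under 0.05, beside 4.16% of all genes. The groups did not overlap for 9 on that side, beside 7.29% of all genes. H2-DMb1, a chain of the peptide exchange factor H2-M (ENSMUSG00000079547, chr17:34153072-34160230), was at 413, 593 and 470.1 in depleted replicates 1, 2 and 3, and 318, 356 and 286 in the untreated ones, with no overlap (log2 0.61 ± 0.15, adjusted p 0.415). H2-Oa, a chain of the H2-M inhibitor H2-O, was at 1289, 1301 and 1319 in depleted replicates 1, 2 and 3, and 1152, 999 and 1105 in the untreated ones (log2 0.27 ± 0.09). The classical chains had smaller differences: H2-Eb1 was at 12989, 14535 and 13189.8 in depleted replicates 1, 2 and 3, and 11679, 11775 and 11882 in the untreated ones (log2 0.20 ± 0.10) and H2-Aa had a log2 difference of 0.23 ± 0.12. Ciita, at 1788, 2499 and 2448 in depleted replicates 1, 2 and 3, and 2229.8, 2103 and 2146 in the untreated ones, overlapped between the groups, and Cd74, the invariant chain gene, was lowest in depleted replicate 1 at 46650.1, 67536 and 60712 in depleted replicates 1, 2 and 3, and 57575, 54759 and 58225 in the untreated ones. The fit without depleted replicate 1 called 3 members higher, beside 4.09% of all genes, with 14 positive and a median of 0.18. Class I processing genes did not share the difference, with 8 of 18 positive and a median of -0.02.

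Genes of the BAFF receptor and CD40 axis, which keep maturing B cells alive through NF-kB, were positive for 9 of 11 tested members (median 0.12). On the higher side 3 were at an unadjusted p under 0.05, beside 4.16% of all genes. Cd40 was at 856, 759 and 700.1 in depleted replicates 1, 2 and 3, and 572, 682 and 585 in the untreated ones (log2 0.33 ± 0.12), with all depleted libraries above all untreated ones, and 0.25 ± 0.10 without depleted replicate 1 (adjusted p 0.122). Birc3, the inhibitor of apoptosis cIAP2, was at 1874, 2411 and 2259 in depleted replicates 1, 2 and 3, and 1719, 1764 and 1772 in the untreated ones (log2 0.31 ± 0.11), and Map3k14, the kinase NIK, at 384, 465 and 483 in depleted replicates 1, 2 and 3, and 348, 363 and 362 in the untreated ones (log2 0.30 ± 0.12). Neither of them overlapped. Tnfrsf13c, the BAFF receptor gene, was at 2678, 3414 and 3156 in depleted replicates 1, 2 and 3, and 3623, 3355 and 3723 in the untreated ones (log2 -0.22 ± 0.11). The list had 7 of 11 positive at a median of 0.05 without depleted replicate 1. In that fit 3 genes were called higher, beside 4.09% of all genes, among them Birc3 at 0.41 ± 0.08 (adjusted p 0.00266).

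The BCL2 family had 2 members lower at an unadjusted p under 0.05 of 13 tested, beside 4.67% of all genes. Both were without overlap, beside 7.88% of all genes on the lower side. Bcl2l1, the survival gene for BCL-XL (chr2:152780668-152831728), was at 44.4, 49.5 and 40.4 in depleted replicates 1, 2 and 3, and 82.9, 107 and 74.6 in the untreated ones (log2 -0.95 ± 0.21, adjusted p 0.396). Bcl2l11, the gene of the death-promoting protein BIM, was at 525, 478 and 609.9 in depleted replicates 1, 2 and 3, and 737, 688 and 651 in the untreated ones (log2 -0.37 ± 0.12, adjusted p 0.502). A survival gene and a death gene of the family were thus both lower by value, and the median of the list was -0.02.

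Genes of B-1 and atypical B cells were lower by value for 10 of 11 tested members (median -0.42). Of these, 5 were at an unadjusted p under 0.05, beside 4.67% of all genes. Cd5, an inhibitory receptor that marks B-1a cells and T cells (ENSMUSG00000024669, chr19:10717116-10739002), was at 18.4, 13.7 and 18.5 in depleted replicates 1, 2 and 3, and 51.3, 37.5 and 44.9 in the untreated ones. The highest depleted library was at 18.5 and the lowest untreated one at 37.5 (log2 -1.35 ± 0.28, adjusted p 0.396; -1.42 ± 0.31 without depleted replicate 1, adjusted p 0.00817). Ahr, the aryl hydrocarbon receptor gene, was at 179, 105 and 199 in depleted replicates 1, 2 and 3, and 273, 224 and 242 in the untreated ones (log2 -0.66 ± 0.22), and Bhlhe41, a regulator of B-1a cells, at 176, 295 and 333 in depleted replicates 1, 2 and 3, and 401, 365 and 354 in the untreated ones (log2 -0.53 ± 0.21). Both had all depleted libraries below all untreated ones. T cells also express Cd5, and Cd3e, a chain of their receptor complex, was at 6.12, 7.37 and 19.4 in depleted replicates 1, 2 and 3, and 13.1, 14.5 and 15.3 in the untreated ones. Of the 8 tested common T cell genes 7 were negative (median -0.37), and 5 without depleted replicate 1 (median -0.17), and their part in the value of Cd5 was not tested. In addition Cd72, a B cell inhibitory receptor gene, was at 2059, 1562 and 1797 in depleted replicates 1, 2 and 3, and 2285, 2266 and 2235 in the untreated ones (log2 -0.33 ± 0.11), without overlap.

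Interferon response genes were negative for most members. Of 31 tested type I interferon genes 24 were negative (median -0.24), with 4 lower and 1 higher at an unadjusted p under 0.05. Without depleted replicate 1 there were 28 negative and 8 called lower (median -0.39). All genes gave 4.67% lower and 4.16% higher at that unadjusted level, and 5.28% and 4.09% called without that library. Against the untreated mean, the median over the 31 genes was 0.15 in depleted replicate 1, the highest of the libraries. It was -0.56 and -0.26 in depleted replicates 2 and 3, and between -0.20 and 0.11 in the untreated libraries. Leaving out depleted replicate 2 gave 20 of 31 negative, a median of -0.09 and 1 lower at an unadjusted p under 0.05. Ddx58, the RNA sensor RIG-I, was at 843, 822 and 850.0 in depleted replicates 1, 2 and 3, and 999.5, 969 and 1042 in the untreated ones (log2 -0.26 ± 0.09), without overlap. Ifi27l2a was at 1000.2, 456 and 573 in depleted replicates 1, 2 and 3, and 842, 1248 and 886 in the untreated ones, with depleted replicate 1 inside the untreated range (log2 -0.61 ± 0.26; -0.93 ± 0.14 without it, adjusted p 0.000256). Among 17 interferon gamma response genes 12 were negative (median -0.20) and 4 were lower and 2 higher at an unadjusted p under 0.05. There were 13 negative (median -0.28), 3 called lower and 2 called higher when depleted replicate 1 was left out. With depleted replicate 2 left out instead the median was -0.08. Gbp6, a guanylate-binding protein gene, was at 67.3, 63.2 and 68.2 in depleted replicates 1, 2 and 3, and 94.8, 138 and 113 in the untreated ones and the GTPase gene Irgm1 at 696, 478 and 642 in depleted replicates 1, 2 and 3, and 805, 822 and 827 in the untreated ones. Both had no overlap and log2 differences of -0.77 ± 0.18 and -0.45 ± 0.14. Ifngr1, the gene of the receptor's ligand-binding chain, was at 837, 962 and 849 in depleted replicates 1, 2 and 3, and 682, 656 and 647 in the untreated ones, the opposite order (log2 0.41 ± 0.10, adjusted p 0.415), and was called higher without depleted replicate 1 (0.45 ± 0.09, adjusted p 0.00514).

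Genes induced within an hour of B cell receptor ligation were negative for most members. Of 20 immediate early genes, 15 were negative (median -0.12) and 4 lower at an unadjusted p under 0.05, beside 4.67% of all genes. Without untreated replicate 1 there was 1 at that level (median -0.06). Without depleted replicate 1 there were 12 negative and 3 called lower (median -0.09), beside 5.28% of all genes called lower. Nr4a1, a reporter of antigen receptor signals, was at 200.4, 202 and 259 in depleted replicates 1, 2 and 3, and 487, 345 and 249 in the untreated ones, overlapping through untreated replicate 3 (log2 -0.66 ± 0.22). Egr2 was at 153, 78.9 and 132 in depleted replicates 1, 2 and 3, and 181, 185 and 186 in the untreated ones (log2 -0.65 ± 0.22) and Jun at 1132, 812 and 836 in depleted replicates 1, 2 and 3, and 1824, 1455 and 996 in the untreated ones (log2 -0.59 ± 0.21), with untreated replicate 1 the highest library for Nr4a1 and Jun, as for Hspa1b. In the signalling core of the receptor 10 of 20 tested genes were positive, 0 were at an unadjusted p under 0.05 and the median was -0.01.

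NF-kB subunits and feedback targets had 2 lower and 1 higher gene of 17 at an unadjusted p under 0.05, beside 4.67% and 4.16% of all genes. Cd83, an activation marker, was at 1494, 1245 and 1413 in depleted replicates 1, 2 and 3, and 1939, 1768 and 1827 in the untreated ones, with no overlap (log2 -0.42 ± 0.10, adjusted p 0.415), and Nfkbid at 864, 444 and 589 in depleted replicates 1, 2 and 3, and 981, 906 and 749 in the untreated ones (log2 -0.52 ± 0.21). In the IL-4 and STAT6 list the 1 member at that level of 12 tested was Bcl2l1, and Il4ra, the IL-4 receptor gene, was at 2399.7, 2925 and 2687 in depleted replicates 1, 2 and 3, and 2767, 2944 and 2877 in the untreated ones (log2 -0.10 ± 0.10). Unc93b1, the chaperone that carries nucleic acid-sensing Toll-like receptors, was at 5715, 6318 and 5933 in depleted replicates 1, 2 and 3, and 4893, 4357 and 4344 in the untreated ones (log2 0.40 ± 0.10, adjusted p 0.415). The median of the 17 Toll-like receptor genes was 0.02. Zeb2, a repressor of the B lineage factors list, was at 869, 889 and 850.0 in depleted replicates 1, 2 and 3, and 1178, 1126 and 1069.7 in the untreated ones and did not overlap (log2 -0.37 ± 0.09, adjusted p 0.415).

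In glucocorticoid-induced genes depleted replicate 1 ran against replicates 2 and 3. Of 12 tested, 9 were positive with a median of 0.14 and 1, Fkbp5, was at an unadjusted p under 0.05. Fkbp5, a cochaperone of the glucocorticoid receptor, was at 205, 412 and 247 in depleted replicates 1, 2 and 3, and 201, 168 and 166 in the untreated ones (log2 0.63 ± 0.23). Tsc22d3, which encodes the leucine zipper protein GILZ, was at 1932, 4846 and 5125 in depleted replicates 1, 2 and 3, and 3584, 4038 and 3409.8 in the untreated ones: depleted replicate 1 was the lowest of the 6 and depleted replicates 2 and 3 the highest. Pik3ip1, an inhibitor of PI3 kinase, was at 303, 1240.0 and 873 in depleted replicates 1, 2 and 3, and 474, 477 and 511 in the untreated ones in the same order. The log2 differences over 6 libraries were -0.01 ± 0.31 and 0.50 ± 0.40. Without depleted replicate 1 they were 0.44 ± 0.08 (adjusted p 0.00266) and 1.09 ± 0.12 (adjusted p 1.74e-05). In that fit 5 of the 12 genes were called higher, beside 4.09% of all genes: Fkbp5, Sesn1, Sgk1, Tsc22d3 and Pik3ip1.

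Other genes called higher without depleted replicate 1 had their highest values in depleted replicates 2 and 3. For genes named by difference the choice fixed this, since both libraries had to exceed all untreated ones. Genes named as farthest above or below in depleted replicate 1 were likewise chosen by that library. Ston1, an endocytic adaptor gene, was at 13.8, 238 and 91.8 in depleted replicates 1, 2 and 3, and 13.1, 29.1 and 19.5 in the untreated ones. Its difference without depleted replicate 1 was the largest positive one among the genes named by difference (2.86 ± 0.36, adjusted p 6.88e-05). Depleted replicate 1 lay within the untreated range. Zfp36l2, an RNA decay factor, was at 907, 4260.1 and 3788 in depleted replicates 1, 2 and 3, and 2801, 2943 and 2303 in the untreated ones, and depleted replicate 1 lay below all other libraries. Zc3h6, a zinc finger gene, was at 136, 369 and 264 in depleted replicates 1, 2 and 3, and 103, 94.5 and 166 in the untreated ones, again with depleted replicate 1 within the untreated range. In contrast Oas1c was at 73.4, 101 and 83.4 in depleted replicates 1, 2 and 3, and 47.1, 29.1 and 59.3 in the untreated ones, so that all 3 depleted libraries were above all untreated ones (log2 0.96 ± 0.27). Genes that stood highest in depleted replicate 1 included Ackr3, a scavenging chemokine receptor that marks marginal zone B cells, at 219, 61.1 and 43 in depleted replicates 1, 2 and 3, and 31.6, 30.3 and 28.8 in the untreated ones, and Sema7a at 581, 72.6 and 146 in depleted replicates 1, 2 and 3, and 178, 137 and 151 in the untreated ones. It was the lowest library for Igha, an immunoglobulin constant gene, at 50.5, 397 and 101 in depleted replicates 1, 2 and 3, and 128, 254 and 334 in the untreated ones. Ighg2b, another, was at 48.9, 223 and 104 in depleted replicates 1, 2 and 3, and 104, 407 and 331 in the untreated ones. Of all tested genes, 74 were over 2-fold above the other 5 libraries in depleted replicate 1 and 62 over 2-fold below, and depleted replicate 2 had 26 and 70.

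The remaining lists had small medians. Among all genes 4.16% were higher and 4.67% lower at an unadjusted p under 0.05. Without depleted replicate 1, 4.09% were called higher and 5.28% lower. Ribosomal protein genes were positive for 67 of 77 (median 0.12), for 53 without depleted replicate 1 (0.05) and for 56 after quantile normalization (0.06), with 2 at an unadjusted p under 0.05, Rpl12 (log2 0.22 ± 0.10) and Rpl17 (log2 0.23 ± 0.10). Ribosome biogenesis and MYC target genes were negative for 22 of 25 (median -0.11, and -0.27 with 6 called lower without depleted replicate 1). In it Cad, the enzyme that starts pyrimidine synthesis, was at 505, 503 and 537 in depleted replicates 1, 2 and 3, and 727, 699 and 609 in the untreated ones (log2 -0.39 ± 0.10). Cholesterol synthesis genes were negative for 19 of 24 (median -0.11), with Insig1, the sterol-sensing partner of SCAP, in the other direction at 242, 212 and 203 in depleted replicates 1, 2 and 3, and 144, 134 and 178 in the untreated ones (log2 0.53 ± 0.15). Nuclear oxidative phosphorylation genes were negative for 49 of 76 (median -0.05), glycolysis genes for 14 of 20 (-0.06) and ATF4 and tRNA synthetase genes for 18 of 21 (-0.09). Several of these medians turned with 1 library. With depleted replicate 1 left out, 66 oxidative phosphorylation genes (median -0.16) and 21 cholesterol genes (median -0.32) were negative, whereas without depleted replicate 2 there were 29 (median 0.03) and 8 (median 0.06). The medians for glycolysis and ATF4 genes were -0.10 and -0.13 without depleted replicate 1. The B lineage transcription factors were positive for 13 of 28 (median -0.03), the inhibitory receptors for 10 of 18 (0.04), the homing receptors for 9 of 17 (0.01) and the immunoglobulin constant genes for 3 of 9 (-0.17). These 4 medians were 0.08, 0.14, -0.01 and 0.08 without depleted replicate 1, the last with 2 genes called higher, and without untreated replicate 2 the immunoglobulin median was 0.14. Mitochondrially encoded genes were positive for 9 of 15 (median 0.05), but for 5 of 15 after quantile normalization. Small nucleolar and Cajal body RNAs were positive for 38 of 42 with a median of 0.38, 6 of them at an unadjusted p under 0.05, and the median without depleted replicate 1 was 0.13. Among 9 abundant structural RNAs, Malat1, a nuclear noncoding RNA, was at 101599, 91732 and 88960.5 in depleted replicates 1, 2 and 3, and 115442, 134039 and 122772 in the untreated ones (log2 -0.40 ± 0.16).

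**Figure D5:**
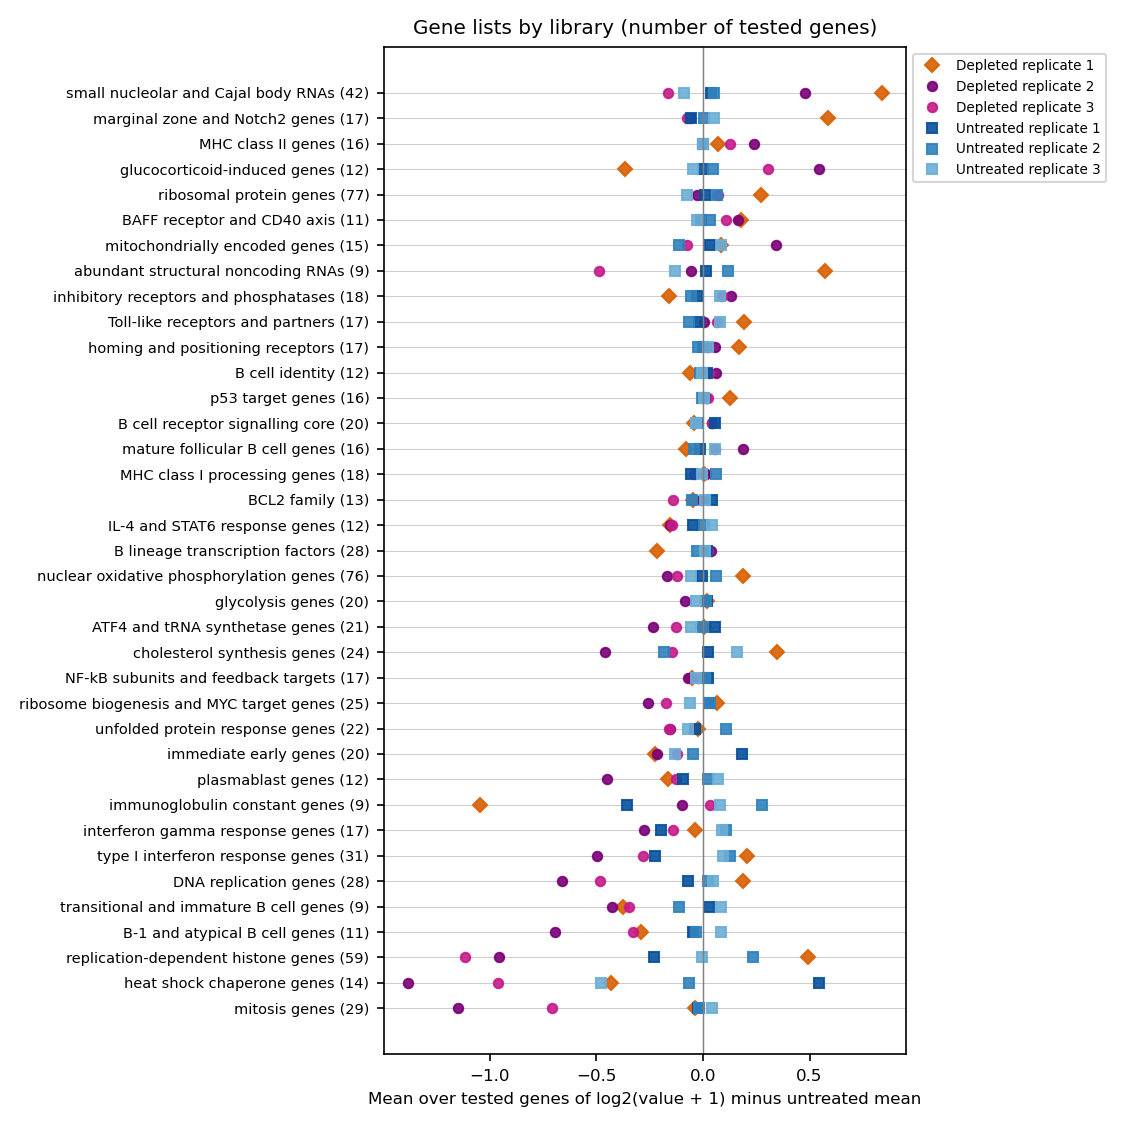
Mean over the tested genes of each list of log2(value + 1) minus the untreated mean, 1 point per library, with the number of tested genes in parentheses. Depleted replicates 2 and 3 lie to the left for mitosis, heat shock, histone and DNA replication genes, whereas depleted replicate 1 lies at -0.04 for mitosis genes and to the right of all other libraries for histone, marginal zone and small nucleolar RNA genes.

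Markers of other cells were low in these sorted libraries, and their part in the results was not tested. Of 14 gamma delta T cell genes 6 were in the table and 1 was tested, Blk, a kinase that B cells express as well. Tcrg-C1 and Trdv2-2 had 0 reads in all 6 libraries and Tcrg-C2 was at 1.79 in untreated replicate 1 and 0 elsewhere, so the depletion itself was not measured here. Of 15 common T cell genes, 8 were tested, 7 of them negative, and the summed value, mostly Cd2 and Lck, was 1947 to 2488 in depleted and 2514 to 2684 in untreated libraries. Cd2 alone was at 1724 to 2107 in depleted and 2150 to 2327 in untreated libraries, whereas Cd3e lay between 6.12 and 19.4 in all of them. The sum thus mostly gives the value of Cd2 and is no measure of T cell content. Alpha beta T cell genes summed to 26.0, 42.1 and 96.0 in depleted replicates 1, 2 and 3 and to 37.6, 64.2 and 85.6 in the untreated ones. Depleted replicate 1 was lowest there, with Trac and Cd4 at 0. Macrophage and monocyte genes, 17 of 18 in the table and 13 tested, summed to 393 to 820 in depleted and 445 to 1196 in untreated libraries. Lyz2, the lysozyme gene of myeloid cells, was at 68.8, 31.6 and 76.7 in depleted replicates 1, 2 and 3, and 69.8, 229 and 254 in the untreated ones (log2 -1.52 ± 0.48), and Itgam, which encodes CD11b, at 38.2, 13.7 and 21.1 in depleted replicates 1, 2 and 3, and 35.2, 40 and 60.2 in the untreated ones (log2 -0.95 ± 0.38). Both were called lower without depleted replicate 1, Lyz2 at -1.68 ± 0.40 (adjusted p 0.0122) and Itgam at -1.32 ± 0.33 (adjusted p 0.017). They were the 2 such genes of the 13, beside 5.28% of all genes. The median of the 13 was -0.35 over 6 libraries and -0.00479 in that fit. Neutrophil genes summed to at most 41.2, with none tested. Natural killer genes summed to 38.8 to 86.0, dendritic cell genes to 156 to 237, platelet genes to 151 to 212, mostly Itgb3, erythroid genes to 8.42 to 87.2, and stromal and endothelial genes to 17.9 to 30.4.

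The second spleen experiment compared 2 depleted with 5 untreated Tcrd-GDL libraries, with no library in common with the first. It also held libraries of toxin-treated Tcrd-H2B mice, whose differences are not described here. They were fitted together with the others, so they contribute to the SE and adjusted p-values of that experiment. The table of the second experiment was normalized separately, so log2 differences are set side by side and were not tested against each other. Of the 1097 genes called without depleted replicate 1, 1096 were tested there and 939 had the same sign (85.7%), beside 64.6% of the 11687 genes tested in both. Of the 24 genes described first, 21 had the same sign. Nlrc3 had 0.82 ± 0.32, Trim7 0.35 ± 0.11, Il2ra -1.03 ± 0.23 and Dusp10 -0.73 ± 0.16 there. For Nlrc3 the depleted libraries were at 513 and 276, the second within the untreated range of 126 to 313. In Trim7, Il2ra and Dusp10 both depleted libraries lay outside the untreated range. Ap1s2 was at -0.91 ± 0.18 and the 1 of the 24 that was called (adjusted p 0.0434), among 40 called genes in all. Sdc1 had 0.18 ± 0.20 and did not share its sign, and Chuk (-0.02 ± 0.10) and Il9r (-0.03 ± 0.27) were near 0.

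In the second experiment Rbm3 had a log2 difference of 1.01 ± 0.22, with depleted values of 10497 and 5666 above the untreated range of 2634 to 4949. Cirbp had 1.20 ± 0.32, but only 1 depleted library, at 2168, was above the untreated range of 338 to 745, and the other was at 724. The heat shock chaperones had a median of -0.26 in the second experiment with 12 of 13 negative, Hsph1 at -0.80 ± 0.30 and Hspa8 at -0.39 ± 0.19, while Hspa1b was at 1.30 ± 0.45. For Hsph1 the depleted libraries were at 387 and 1093, the second within the untreated range of 790 to 1636. Hspd1 (1108 and 1670 beside 1377 to 2199) and Stip1 (623 and 994 beside 892 to 1200) had the same pattern. In mitosis genes the second experiment gave a median of -0.65, with 24 of 29 negative, and Mki67 was called lower (-1.53 ± 0.28, adjusted p 0.0288). Myb (-0.57 ± 0.11, adjusted p 0.0403) and Rag1 (-1.99 ± 0.30, adjusted p 0.013) were called lower as well. Histone genes did not follow, with a median of 0.03 and 33 of 58 positive, although Hist1h3b was called lower at -1.05 ± 0.21 (adjusted p 0.0434). Several genes in which depleted replicate 1 had departed from replicates 2 and 3 were called higher there: Ston1 (3.28 ± 0.43, adjusted p 0.00555), Ighd (0.78 ± 0.13, adjusted p 0.0209), Tsc22d3 (0.92 ± 0.17, adjusted p 0.0346), Pik3ip1 (1.17 ± 0.21, adjusted p 0.0288) and Fkbp5 (1.43 ± 0.23, adjusted p 0.0209). The MHC class II median was 0.16 in both experiments, with 12 of 16 positive in the second. There the depleted libraries were at 1093 and 751 for H2-DMb1, the second within the untreated range of 749 to 867. For H2-Oa both, at 3018 and 2610, were above the untreated range of 2074 to 2490. The median of the BAFF receptor and CD40 axis was 0.00, with Cd40 at -0.07 ± 0.09, and that of the B-1 list -0.28, with Cd5 at -1.13 ± 0.41 (adjusted p 0.322). Cd5 was at 14.3 and 54.8 in the depleted libraries, the second within the untreated range of 41.2 to 93.0.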

How the data were processed

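Sorted splenic B220+CD93+ cells were extracted with the RNeasy Plus Micro kit, and total RNA libraries came from the SMART-Seq Stranded kit, per the labels' protocols. The submitters' processing notes name bcl2fastq, STAR 2.5.2b and mm10. The read counter, strand setting, annotation and scaling method were not given in the sources used here. Values deposited by the authors are a scaled signal, named normalized counts per gene. In each library 100% of them were whole multiples of 1 read within a tolerance of 0.01, from which reads were recovered for the count tests.

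Since this unit is not a raw count, limma (3.58.1, R 4.3.3, trend) was run on log2(value + 1), which understates changes of low genes. Its call rule was a Benjamini-Hochberg adjusted p under 0.05, on genes with a mean of at least 10. edgeR 4.0.16 and DESeq2 1.42.0 on recovered reads were alternatives. Differences are given ± SE. Counting error was 6.82% at the median gene and 29.9% near the filter, and every replicate pair differed by more than that. GENCODE M21 (GRCm38) held 98.9% of the identifiers and gave coordinates. The test was tried on simulated data.

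Genes and the 48 lists were chosen with earlier results of these data known. Named genes are the 12 on each side with the smallest p, no overlap and a mean of at least 50 (no gene segments, predicted genes, small RNAs or sex-linked genes), up to 3 per list by p, and Cd93, Ptprc, Ighm, Ighd, Cr2, Fcer2a, Il4ra, Rag1, Mki67, Sdc1, Tsc22d3 and Trdc, the last not analysed here. Added were 12 on each side by difference among genes called without depleted replicate 1 (mean of at least 50, no overlap), and the 10 farthest above and below in that library. Birc5, Ccnb2, Cd24a, Cd3e, Cd74, Ciita, H2-Aa, H2-Eb1, Hsf1, Hsp90aa1, Hspa8, Rrm2, Sgk1, Top2a and Gm23935 were chosen after their values were seen. Some genes that these rules name are not reported here. Deviations of same-numbered libraries correlated at -0.02, -0.04 and 0.05, so numbers were not treated as pairs.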

Additional observations from a re-analysis of the deposited data

How the results depend on the processing

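Of the 11701 tested genes 0 were called as reported, with pseudocounts of 0.5 and 8, a mean of at least 50, quantile normalization and edgeR. No filter gave 2 calls, DESeq2 31, and limma with estimated library weights 1822 (weight 0.207 for depleted replicate 1), where 3690 genes had an unadjusted p under 0.05 in place of 1033. Leaving out 1 library gave 0 to 1097 calls, all 1097 without depleted replicate 1, and 571 to 2921 genes at an unadjusted p under 0.05, the lowest without untreated replicate 2, with 607 and 629 without untreated replicates 1 and 3. Without depleted replicate 1, edgeR called 1068 genes, DESeq2 808 and limma after quantile normalization 926, with 2860, 2229 and 2880 at an unadjusted p under 0.05. The replicate block gave 0 calls and 912 genes at that level and changed no call. Among named genes, signs changed as follows, all log2. Leaving out 1 library gave -0.17 to 0.011 for Cd93, -0.15 to 0.019 for Ptprc, -0.15 to 0.079 for Ighm, -0.00525 to 0.62 for Ighd, -0.21 to 0.14 for Fcer2a, -0.94 to 0.081 for Mki67 and -0.26 to 0.44 for Tsc22d3. Library weights gave -0.18 for mt-Atp6, 0.0018 for Ighm, 0.027 for Fcer2a and 0.44 for Tsc22d3, edgeR and DESeq2 gave 0.11 each for Tsc22d3, and DESeq2 gave 0.054 for Hist1h3b. Without depleted replicate 1, edgeR, DESeq2 and quantile normalization gave 0.075, 0.077 and 0.015 for Ighm, 0.14, 0.14 and 0.080 for Fcer2a and 0.44, 0.44 and 0.39 for Tsc22d3, and edgeR and DESeq2 gave 0.0095 and 0.011 for Ptprc. The causes were not tested. Depth limits genes near the filter, where counting error alone was 29.9%.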

Other observations

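Several genes outside the lists described above were named by their difference without depleted replicate 1. That choice placed depleted replicates 2 and 3 above all untreated libraries. Mybpc2, a myosin-binding protein gene, was at 38.2, 134 and 87.6 in depleted replicates 1, 2 and 3, and 34, 35.1 and 43.2 in the untreated ones, and its log2 difference without depleted replicate 1 was 1.51 ± 0.25 (limma with Benjamini-Hochberg adjustment, adjusted p 0.000733). Arl4c, a small GTPase gene, was at 41.3, 96.8 and 77.5 in depleted replicates 1, 2 and 3, and 35.2, 48.4 and 36.4 in the untreated ones (adjusted p 0.00805 without depleted replicate 1). The highest untreated library exceeded depleted replicate 1 in both. Cul9, a cullin gene, differed from them in that all 3 depleted libraries were above all untreated ones, at 96.4, 166 and 104 in depleted replicates 1, 2 and 3, and 53.1, 64.2 and 76.3 in the untreated ones (log2 0.89 ± 0.24, and 1.03 ± 0.22 without depleted replicate 1).

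Other genes named for depleted replicate 1 or for their lists had their highest value in that library. Where a gene was named for that library, the choice fixed this. Tlr3, the receptor for double-stranded RNA, was at 112, 15.8 and 22.7 in depleted replicates 1, 2 and 3, and 12.5, 8.48 and 17 in the untreated ones, and Cd9, a tetraspanin gene of marginal zone B cells, at 179, 106 and 108 in depleted replicates 1, 2 and 3, and 72.8, 105 and 99.2 in the untreated ones. Asb2, a ubiquitin ligase subunit gene, was at 167, 35.8 and 43 in depleted replicates 1, 2 and 3, and 15.5, 43.6 and 44.9 in the untreated ones. Their log2 differences over 6 libraries were 1.43, 0.47 and 1.00, and without depleted replicate 1 they were 0.60, 0.23 and 0.31. Id2, an inhibitor of E proteins, was higher by value in all 3 depleted libraries, at 58.1, 41.1 and 48.9 in depleted replicates 1, 2 and 3, and 32.8, 35.1 and 32.2 in the untreated ones (log2 0.54 ± 0.23, adjusted p 0.556).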
